A study of Mus musculus with 2 samples.

Results

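*Lck*, *Fyn*, *Csk*, *Ptprc*, *Pag1*, and *Ptpn22* were examined in RNA-seq libraries of mature thymocytes that express CD8αβ from transgenes. These 6 genes, of 48321 gene symbols listed, were taken by name as the Src-family kinases of T cells and the enzymes and adaptor that control them, and all 6 were found in both count files. The 2 libraries form a single group, labelled MHC-II0:CD8ab Tg on a C57Bl/6 background. The mice are deficient in MHC class II through loss of I-Aβ, carry on both chromosomes the *Cd8*Δab allele, in which the endogenous genes are disrupted, and express CD8α and CD8β cDNAs from the *Rosa26* locus after *Cd4*-Cre removes a stop cassette in thymocytes. The sorted cells were CD4- mature thymocytes, the mature gate being CD24 low and TCRβ high. The sample titles name cells negative for both co-receptors, whereas the cell type fields name CD8+ cells. No age is given in the labels, and whether a library came from 1 mouse or from a pool is not stated. No wild-type library is analysed here. The values are therefore levels within transgenic cells, and each difference is one between the 2 libraries.

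Lck is the Src-family kinase that is carried to the TCR by the tails of CD4 and CD8, and it phosphorylates the CD3 and ζ chains when the receptor is engaged. Fyn is the other main Src-family kinase of T cells, and it associates with the TCR complex itself and with SLAM-family receptors through the adaptor SAP. Both kinases are held inactive when Csk phosphorylates a tyrosine in the C-terminal tail. The receptor phosphatase CD45, the product of *Ptprc*, removes that phosphate, the membrane adaptor PAG (*Pag1*) brings Csk to the membrane, and the phosphatase PTPN22 works with Csk to dampen signalling by removing phosphate from the activation loop of the kinases.

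The coding sequences through which these proteins meet were read from GENCODE M21 transcripts, on the same GRCm38 build as the authors' mm10. All are shown 5′ to 3′ on the coding strand, 45 bases each, in lower case. The first set is shown because these tails carry the site on which Csk and CD45 act. The codon of the regulatory tyrosine is in capitals, and it is codon 505 of 509 in *Lck* (chr4:129548801-129548845, minus strand, in exon 12 of 12) and codon 528 of 534 in *Fyn* (chr10:39563925-39563969, plus strand, in exon 14 of 14). The tail of *Csk* (chr9:57627324-57627368, minus strand, in exon 13 of 13), a kinase that lacks such a tyrosine, is given for comparison and has no capitals.
Lck: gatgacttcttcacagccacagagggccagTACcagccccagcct
Fyn: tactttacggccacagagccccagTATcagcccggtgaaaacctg
Csk: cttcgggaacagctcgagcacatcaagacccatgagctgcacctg

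The second set is shown because the cysteines of the CD8α tail and of the N-terminus of Lck hold a shared zinc ion and thus join the co-receptor to the kinase. The cysteine codons are in capitals. They are codons 20 and 23 of *Lck* (chr4:129558096-129558140, minus strand, in exon 1 of the 12 of this transcript) and codons 227 and 229 of *Cd8a*, whose stretch is spliced from exons 3 to 5 on the plus strand of chromosome 6.
Lck: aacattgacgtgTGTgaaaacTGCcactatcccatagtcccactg
Cd8a: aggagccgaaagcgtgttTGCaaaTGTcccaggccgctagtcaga

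The third set marks how the regulators work. In *Pag1* the capitals mark codon 314, the tyrosine that binds the SH2 domain of Csk once phosphorylated. In *Ptpn22* they mark first the proline-rich motif that binds the SH3 domain of Csk, at codons 614 to 619, and then the catalytic cysteine, at codon 227. In *Ptprc* they mark the catalytic cysteine of the membrane-proximal phosphatase domain, at codon 703 of a transcript with 1154 codons. The *Pag1* stretch is spliced from exons 7 and 8 on chromosome 3, that of the *Ptpn22* motif lies in exon 14, the other *Ptpn22* stretch is spliced from exons 8 and 9, and that of *Ptprc* is spliced from exons 21 and 22 on chromosome 1.
Pag1: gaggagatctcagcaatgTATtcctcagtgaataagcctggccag
Ptpn22 motif: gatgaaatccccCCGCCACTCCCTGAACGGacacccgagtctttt
Ptpn22 catalytic site: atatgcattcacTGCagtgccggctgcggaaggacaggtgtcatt
Ptprc catalytic site: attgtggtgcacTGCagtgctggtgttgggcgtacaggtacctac

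*Lck* and *Fyn* are related genes, so shared sequence was examined before their counts were compared. Their coding sequences were identical at 63.0% of 1524 aligned bases, and the longest run common to both was 20 bases, shorter than the 50-base reads. None of the 50-base windows of *Lck*, *Fyn*, or *Csk* transcripts occurs in transcripts of another gene, on either strand. The share was 0.0754% for *Ptprc*, 0.209% for *Pag1*, and 0.265% for *Ptpn22*, and none of these windows was shared with a Src-family kinase. No exon of the 6 genes overlaps one of a gene on the opposite strand, and on the same strand the overlap was limited to 25 bases of *Lck* with the microRNA gene *Mir8119*.

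Reads on genes numbered 16732644 in replicate 1 and 16245849 in replicate 2. Levels are given as CPM, the reads of a gene scaled to a common library total, and a detection floor of 3 counts equals 0.179 CPM in the first library and 0.185 CPM in the second. The libraries stand apart in sex-linked RNA, with *Xist* reaching 2.03 CPM in the first and 1555 CPM in the second and the Y-linked *Ddx3y* 146 and 0 CPM. None of the 6 genes is on a sex chromosome, but sex and library cannot be told apart in any difference between the libraries. All 6 of the T-lineage markers were at 219 CPM or higher in both libraries. *Cd14* and all 3 of the erythroid markers had 0 counts, which allows a level of up to that floor. The 5 B-lineage markers summed to 1.85 and 1.54 CPM, the 6 myeloid markers to 11.95 and 13.5 CPM, mostly *Csf1r*, the 5 markers of thymic epithelium to 3.71 and 4.19 CPM, and the 4 of double-positive thymocytes to 14.2 and 14.3 CPM, mostly *Dntt*. The 3 NK-cell markers summed to 35.0 and then 48.1 CPM. All 3 were higher in replicate 2 at an adjusted p under 0.05 in the test described below, against 13.5% of all genes tested. Of these markers, 1 also differed at least 2-fold, as 1.52% of all genes tested did.

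All of the genes were well above the floor, and together they took 0.456% of the reads on genes in the first library and 0.480% in the second. *Lck* extends from 129548344 to 129573641 on the minus strand of chromosome 4 and received 12806 reads in the first library and 13913 in the second, or 765 and 856 CPM. Its mean level was 811 ± 64.4 CPM (SD, n = 2), rank 88 of all genes by CPM. *Fyn*, on the plus strand of chromosome 10 from 39368855 to 39565381, had 6943 and 7828 counts, or 415 and 482 CPM, with a mean of 448 ± 47.3 CPM (SD, n = 2). Both kinases were higher in replicate 2, and the Wilson 95% confidence intervals of the libraries did not overlap for either. These intervals were 752 to 779 and 842 to 871 CPM for *Lck*, and 405 to 425 and 471 to 493 CPM for *Fyn*. Only counting error enters them, and PCR copies were not told apart by molecular identifiers. Mitochondrial and ribosomal RNA genes held 16.0% of the reads on genes in the first library and 12.6% in the second. That lowers the CPM of all other genes more in the first. With totals that left these genes out, the log2 ratios of replicate 2 to replicate 1 were 0.11 for *Lck* and 0.16 for *Fyn*. They were 0.16 and 0.22 with the full totals. In bulk samples fewer cells of a type and less RNA per cell cannot be told apart.

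*Csk*, which restrains the kinases, extends from 57626646 to 57653631 on chromosome 9, minus strand. It had 5374 and 5369 counts, or 321 and 330.5 CPM, and a mean of 326 ± 6.59 CPM (SD, n = 2). *Pag1*, the anchor of Csk, extends from 9687479 to 9833679 on the minus strand of chromosome 3. It had 4810 and 4320 counts, or 287 and 266 CPM, and was the only one of the 6 genes with the lower level in replicate 2. Its mean was 277 ± 15.2 CPM (SD, n = 2), and the intervals of the libraries, 279 to 296 and 258 to 274 CPM, did not overlap.

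*Ptprc* had by far the most counts of the group, 41753 and 41945, equal to 2495 and 2582 CPM. Its mean of 2539 ± 61.2 CPM (SD, n = 2) ranked 12 of all genes. The gene extends from 138062861 to 138175708 on chromosome 1, minus strand, and counts per gene do not separate its 13 annotated transcripts, so they say nothing of the CD45 isoforms. *Ptpn22*, on the plus strand of chromosome 3 from 103859795 to 103912247, had 4581 and 4647 counts, or 274 and 286 CPM, with a mean of 279.9 ± 8.67 CPM (SD, n = 2). For *Csk* and *Ptpn22*, the intervals of the libraries overlapped.

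**Figure D1:**
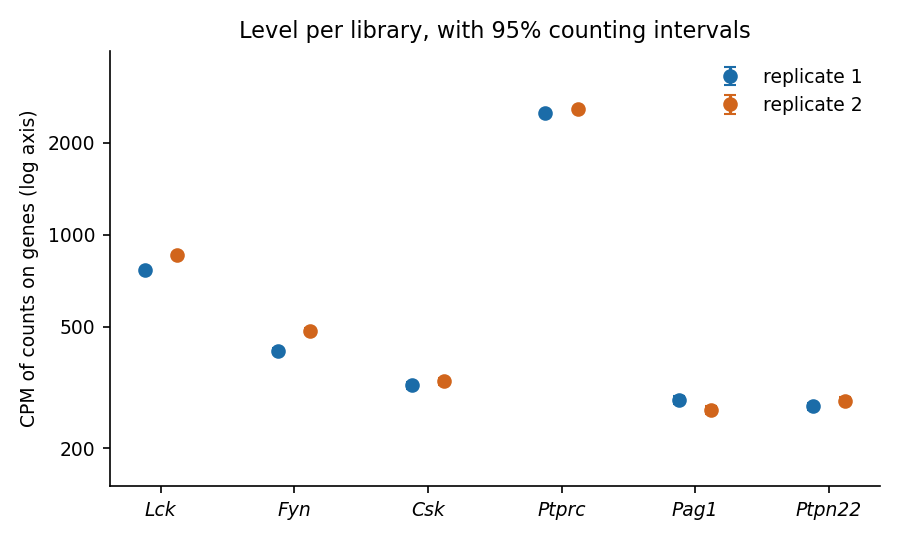
Level of each gene in each library, in CPM of the counts on genes, on a log axis. Points are single libraries and the bars are Wilson 95% intervals, mostly smaller than the points. *Ptprc* was at 2495 and 2582 CPM, above *Lck* at 765 and 856 CPM, and the lowest were *Pag1* and *Ptpn22*, between 266 and 287 CPM.

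CPM favours long transcripts, so the genes were compared with each other per kb. Per kb of all annotated exons of a gene, *Lck* was the highest at 277 ± 21.99 CPM per kb (SD, n = 2), followed by *Ptprc* at 139 ± 3.34, *Fyn* at 103 ± 10.8, *Csk* at 87.2 ± 1.76, *Ptpn22* at 41.3 ± 1.28, and *Pag1* at 28.9 ± 1.59. On this scale the values of neighbours in the order did not overlap between the libraries. The annotation of *Ptprc* includes retained introns, which bring its exons to 18313 bases against 5074 bases for its longest coding transcript. Per kb of the longest coding transcript, a length chosen after these values were seen, *Ptprc* came first at 500.3 ± 12.1 CPM per kb and *Lck* second at 371 ± 29.5. *Fyn* then had 126 ± 13.3 and *Csk* 119 ± 2.40, which overlapped, since *Fyn* in replicate 1 was at 116 and *Csk* at 117. *Ptpn22* had 102 ± 3.16 and *Pag1* 33.5 ± 1.85 CPM per kb. Which of *Lck* and *Ptprc* was higher thus depended on the length used.

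**Figure D2:**
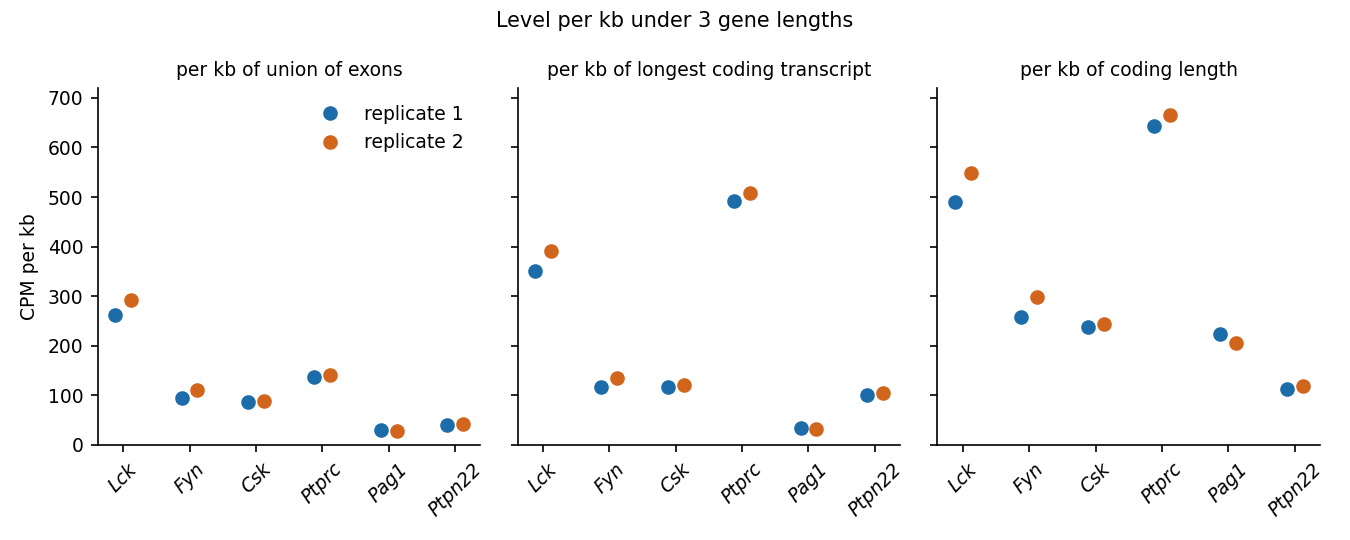
CPM per kb of each gene in each library, for 3 definitions of gene length. *Lck* was the highest per kb of all exons, at 261 and 292, and *Ptprc* per kb of the longest coding transcript, at 492 and 509. *Pag1* was the lowest on both of these scales but not per kb of coding sequence, where it was at 223 and 207.

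The median protein-coding gene with at least 1 CPM in both libraries was at 10.6 CPM per kb of the longest coding transcript, over 10355 genes. By the same measure *Ptprc* ranked 82, *Lck* 114, *Fyn* 345, *Csk* 364, *Ptpn22* 433, and *Pag1* 1855 of 21163 protein-coding genes. *Pag1*, the lowest of the 6 by this rank, has a long transcript of 8256 bases of which 1287 are coding. Per kb of coding sequence its level was 215 ± 11.8 CPM (SD, n = 2), above *Ptpn22* at 116 ± 3.605.

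Within each library the counts of *Lck* were 1.84 and 1.78 times those of *Fyn*. Per kb of all exons the ratio was 2.70 ± 0.0707 (SD, n = 2), and it was 2.95 ± 0.0774 per kb of the longest coding transcript and 1.87 ± 0.0490 per kb of coding sequence, so *Lck* was the more abundant on each of these scales. The level of *Lck* was 3.04 and 3.31 times that of *Csk* per kb of all exons, and *Csk* was 2.13 and 2.09 times *Ptpn22*. The levels nearest to *Lck* among protein-coding genes, by the distance in log2(CPM per kb of all exons + 1) over the 2 libraries, were those of *Rpl37a* and *Rpl39*, which encode ribosomal proteins. Nearest to *Fyn* were *Zap70*, at 94.7 and 106 CPM per kb, and *Chd3*, at 97.2 and 115 CPM per kb.

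The libraries were then compared over 15949 genes with at least 10 counts, using the exact binomial test, two-sided, and adjusting p by Benjamini-Hochberg. The comparison is of 2 libraries and not of conditions, and its error is that of counting alone. None of the 6 genes differed at least 2-fold at an adjusted p under 0.05, which 1.52% of all genes tested did. Without the fold threshold, 4 of the 6 were under 0.05 at any fold, against 16.3% of all genes tested. Of the 681 genes with at least 8000 counts over both libraries, 359 were higher and 94 lower in replicate 2 by the same threshold. Only 1 of these 681 also differed at least 2-fold, so the absence of such a call among the 6 genes is nothing particular to them. The share under 0.05 thus rises with depth, and the shares over all genes given with the lists are not matched for depth. *Lck*, *Fyn*, and *Ptprc* were higher in replicate 2, as 13.5% of all genes were, and *Pag1* was lower, as 2.82% were. Scaled to the total, *Fyn* had a log2 ratio of replicate 2 to replicate 1 of 0.22 (exact binomial test, adjusted p = 1.32e-17), followed by *Lck* at 0.16 (adjusted p = 5.17e-18) and *Pag1* at -0.11 (adjusted p = 0.00264). *Ptprc* differed by 0.049 (exact binomial test, adjusted p = 2.09e-05), but by -0.028 with TMM library sizes and -0.027 with DESeq2 size factors, so its direction depended on the scaling. *Csk* and *Ptpn22* had log2 ratios of 0.041 and 0.063 (exact binomial test, adjusted p = 0.354 and 0.144), and both ratios were below 0 with TMM, at -0.036 and -0.014.

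The median difference of the 6 genes was near that of other genes of like depth. In absolute log2 difference the median was 0.088 over the 6 genes, 0.17 over all genes tested, and 0.097 over those 681 genes. Singly, *Fyn*, *Lck*, and *Pag1* were above the last of these medians, and *Csk*, *Ptprc*, and *Ptpn22* were below it. The median gene was itself 0.076 higher in replicate 2 on the log2 scale, and this shift was removed by TMM, after which *Fyn* was at 0.14, *Lck* at 0.085, and *Pag1* at -0.19, the furthest from 0 of the 6. With totals that left out mitochondrial and ribosomal RNA genes, *Pag1* was also the furthest at -0.17, with *Fyn* at 0.16 and *Lck* at 0.11. When a biological coefficient of variation of 0.1 was assumed, the adjusted p was 1 for each of the 6 genes in edgeR's exact test. The summed level of the 3 NK-cell markers was also higher in replicate 2, and its part in the higher levels of *Lck* and *Fyn* was not tested.

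**Figure D3:**
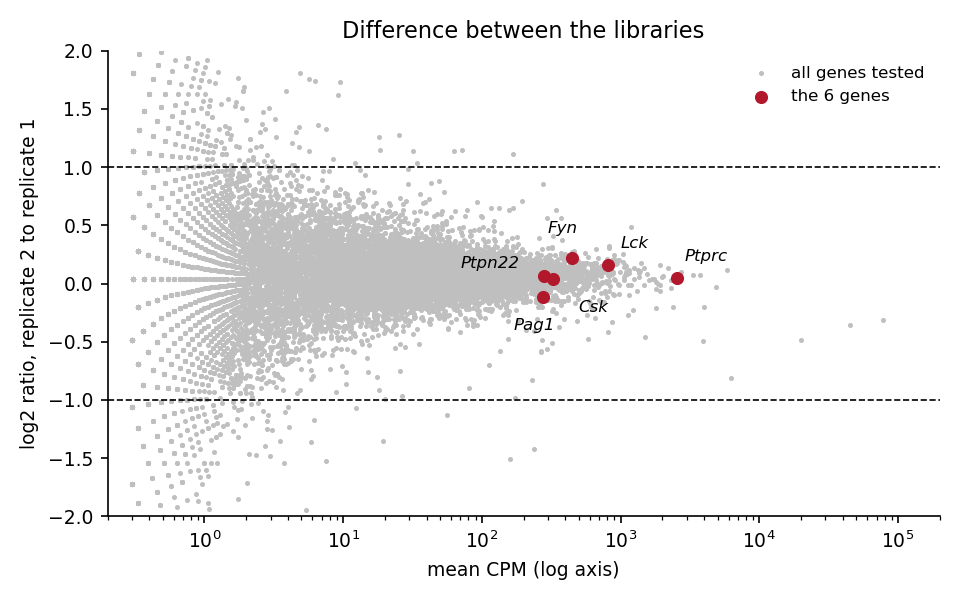
Log2 ratio of replicate 2 to replicate 1 against the mean CPM on a log axis, for the genes tested (grey) and the 6 genes (red). Dashed lines mark a 2-fold difference, and 134 genes lie beyond the vertical range. The 6 genes lie between -0.11 and 0.22, well inside the dashed lines.

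The ratio of a pair of genes within a library does not depend on the library total. Over the 15 pairs of the 6 genes, the ratio changed between the libraries by 0.0080 to 0.33 on the log2 scale, with a median of 0.15. The largest change was in *Fyn* to *Pag1*, whose counts stood at 1.44 to 1 in replicate 1 and 1.81 to 1 in replicate 2, a change of 1.26-fold. *Lck* to *Pag1* came next, at 2.66 and 3.22. By contrast, *Csk* to *Ptprc* was 0.129 and 0.128, *Ptprc* to *Ptpn22* 9.11 and 9.03, and *Csk* to *Ptpn22* 1.17 and 1.16. *Csk*, *Ptprc*, and *Ptpn22* thus kept their proportions within 1.02-fold, whereas the kinases and *Pag1* moved in opposite directions relative to them. No test was made on these ratios, because the genes were chosen as a list.

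**Figure D4:**
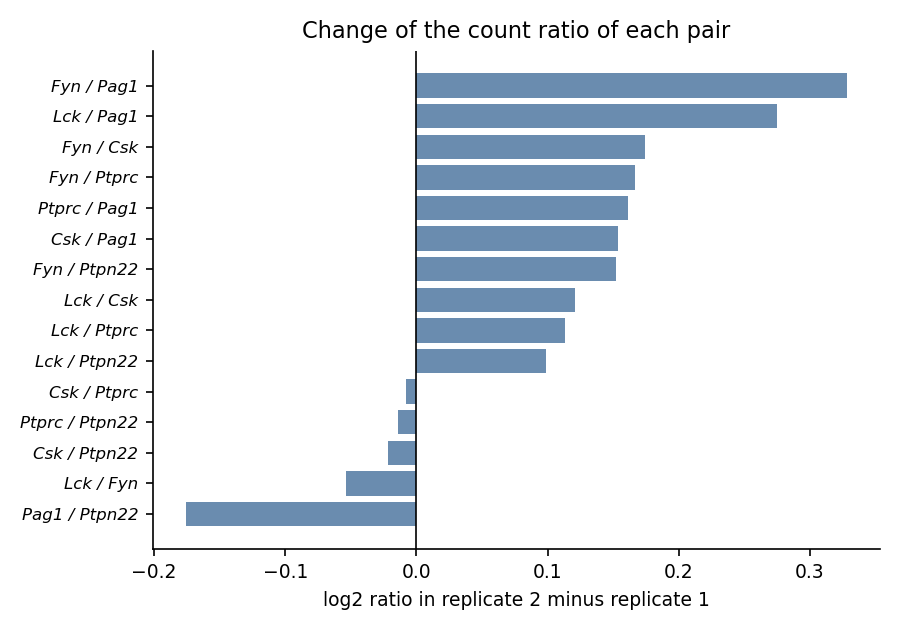
Change of the log2 count ratio of each of the 15 pairs, replicate 2 minus replicate 1. The bars of *Fyn* / *Pag1* and *Lck* / *Pag1*, at 0.33 and 0.27, are the longest, and the pairs among *Csk*, *Ptprc*, and *Ptpn22* lie within 0.022 of 0.

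The other members of the Src family were compared with *Lck* and *Fyn*. Of all counts on the 8 Src-family genes, *Lck* held 63.7% ± 0.571 and *Fyn* 35.2% ± 0.606 (SD, n = 2), and the other 6 kinases together held 1.16% ± 0.0346. Per kb of all exons, the shares were 72.2% ± 0.490 for *Lck*, 26.8% ± 0.520 for *Fyn*, and 0.983% ± 0.0297 for the other 6. *Fgr*, a kinase known from myeloid cells, was the highest of these with 125 and 135 counts, or 7.47 and 8.31 CPM. *Lyn*, a kinase of B cells and myeloid cells, had 49 counts in each library. *Yes1* had 22 and 21 counts, *Src* 19 and 25, and *Blk*, a kinase of the B lineage, 16 and 14. None of the 6 differed between the libraries at an adjusted p under 0.05, against 16.3% of all genes tested. With so few counts the test could find only large differences. *Src*, 1.35 times higher in replicate 2, had an adjusted p of 0.627 (exact binomial test). For *Lyn* and *Yes1*, shared sequence adds to the counting error. Of their 50-base transcript windows, 18.3% and 8.35% are shared with other genes, counting both strands.

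The partners on which Lck and Fyn act were examined next. *Cd8a*, whose tail binds Lck, was at 158 and 171 CPM and *Cd8b1* at 775 and 786 CPM, while *Cd4* had 12 and 27 counts. Reads from the inserted cDNAs and from the disrupted endogenous genes cannot be told apart in these counts, and 6.28% of the 50-base windows of *Cd8b1* transcripts are shared with other genes. A list of 14 genes held receptors and adaptors that bind Lck or Fyn, with *Cd8b1* included as the gene of the partner chain of CD8α. Of these genes, 13 were at 1 CPM or more in both libraries, all except *Cd4*. At an adjusted p under 0.05, 7 were higher and 2 lower in replicate 2, against 13.5% and 2.82% of all genes tested. Among the 681 genes with at least 8000 counts, 359 were higher and 94 lower. The highest per kb of all exons were *Cd8b1* at 526 ± 4.998 CPM per kb, *Cd2*, an adhesion receptor, at 206 ± 0.151, and *Il2rb*, the β chain of the receptors for IL-2 and IL-15, at 130.2 ± 11.5 (SD, n = 2 each). *Cd8a*, the gene of the chain whose tail binds Lck, was at 45.3 ± 2.56 CPM per kb (SD, n = 2). *Sh2d1a*, which encodes SAP, the link of Fyn to SLAM receptors, was at 37.7 and 46.5 CPM.

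Of 9 substrates of the kinases, 8 were at 1 CPM or more in both libraries, with a median of 95.1 CPM per kb of all exons, and 3 were higher and 2 lower in replicate 2 at that threshold, against 13.5% and 2.82% of all genes tested. *Cd3d* at 226 ± 3.55 CPM per kb and *Cd3g* at 180.3 ± 13.5, both for chains of the CD3 complex, were the highest (SD, n = 2 each). *Syk* had 12 and 13 counts, whereas *Zap70*, the kinase that Lck activates at the TCR, had 4743 and 5147.

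Among 15 other phosphatases and their partners, all were at 1 CPM or more in both libraries, with a median of 11.6 CPM per kb of all exons. *Ptprcap*, which encodes a protein associated with CD45, was at 264 ± 6.59 CPM per kb, near the level of *Lck*, and *Ptpn6*, which encodes SHP-1, was at 176 ± 5.14, followed by *Ptpn7* at 20.6 ± 2.24 (SD, n = 2 each). In this list, 3 genes were higher in replicate 2 at an adjusted p under 0.05 and none was lower, against 13.5% and 2.82% of all genes tested. Of the 8 genes for a relative of Csk and other adaptors, *Lax1* at 68.8 ± 8.03, *Sit1* at 41.0 ± 1.39, both for transmembrane adaptors, and *Dok2*, whose product is an inhibitory adaptor, at 23.9 ± 3.22 CPM per kb were the highest. *Matk*, the gene of the Csk relative, was at 17.2 and 24.1 CPM, far under *Csk*, and it was among the 4 genes of this list that were higher in replicate 2 at an adjusted p under 0.05, against 13.5% of all genes tested.

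Genes for the folding and delivery of Lck were led by *Hsp90ab1* at 595 ± 14.1 CPM per kb, *Hsp90aa1* at 42.5 ± 3.05, and *Cdc37*, the HSP90 partner for kinases, at 23.2 ± 2.22 (SD, n = 2 each). *Unc119*, a chaperone of the lipid-modified N-terminus of Lck, was at 13.1 and 17.7 CPM, and *Mal*, with 1 and 0 counts, was the only gene of the 10 at or under 3 counts. In this list 2 genes were higher and 2 lower in replicate 2 at an adjusted p under 0.05, against 13.5% and 2.82% of all genes tested. The ligase genes *Cbl*, *Cblb*, and *Socs6* were at 374 ± 25.7, 122 ± 15.6, and 17.5 ± 0.881 CPM, and the splicing factor genes *Ptbp1*, *Hnrnpl*, and *Hnrnpll*, whose products act on the variable exons of *Ptprc*, at 399 ± 21.4, 390.5 ± 25.1, and 42.7 ± 0.762 CPM (SD, n = 2 each). Cell-type markers aside, no gene of the lists differed at least 2-fold at an adjusted p under 0.05, against 1.52% of all genes tested. Such calls are rarer at greater depth. They were 55 of the 10969 genes with at least 100 counts and 1 of the 681 with at least 8000.

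**Figure D5:**
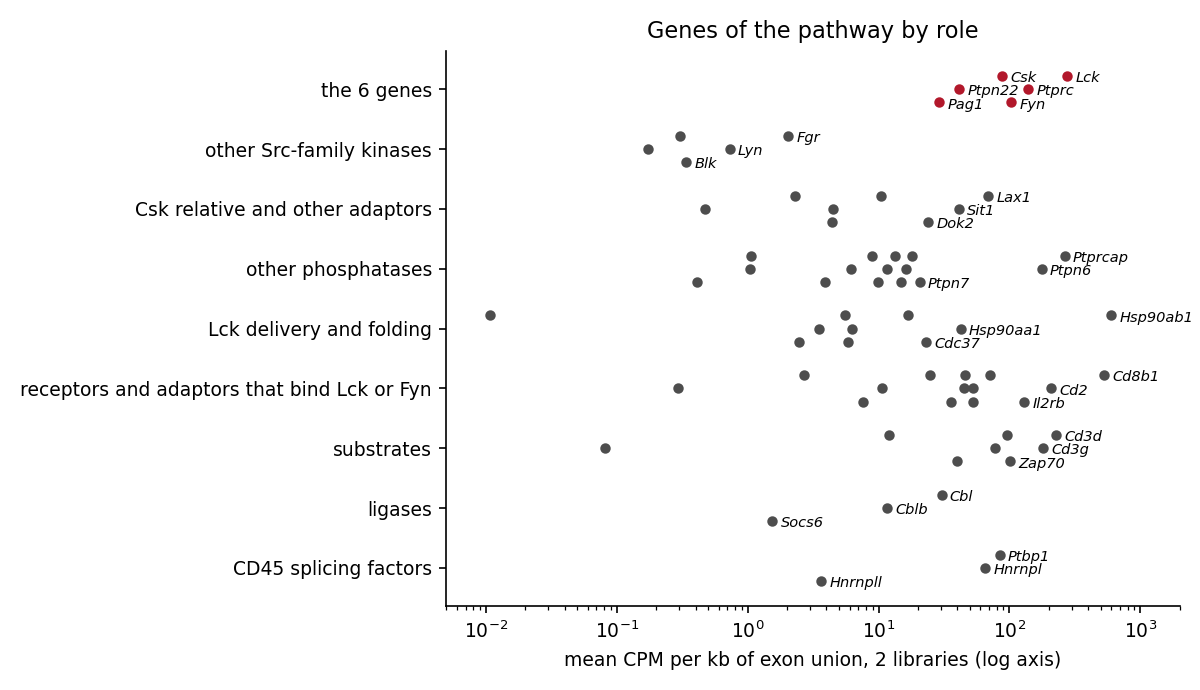
Mean level of the genes of the pathway over the 2 libraries, in CPM per kb of all exons on a log axis, by role. The 6 genes (red) lie between 28.9 and 277, and the other Src-family kinases at 2.04 or lower. The 3 highest genes plotted of each list are named, and genes not reported are left out.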

How the data were processed

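Poly(A) libraries of sorted CD4- mature thymocytes were read as single-end 50-base reads. The authors mapped them with TopHat2 2.1.1 onto mm10 and counted reads per gene with HTSeq 0.6.1. The deposited values are raw counts per gene symbol. The annotation and the strand setting are not given in the sources used here. Rows starting with __ were left out of totals, and reads on no gene were 55.9% of the uniquely aligned reads in both libraries.

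Counts were divided by the total on genes (CPM). Positions and lengths came from GENCODE M21 (GRCm38), which held 46294 of the 48321 symbols once each. Levels are mean ± SD over the 2 libraries. With a single group, no model of conditions could be fitted. The exact binomial test (scipy 1.17.1) was run on genes with at least 10 counts, with 0.5 added to counts in log2 ratios. It was checked on simulated counts that varied by counting error alone, as the test assumes. That check does not cover variation between samples. Alternatives used edgeR 4.0.16 and DESeq2 1.42.0. Labels do not say which mice, or how many, gave each library. *Xist* and *Ddx3y* differed between the libraries, so they were not repeats of 1 RNA sample.

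The 6 genes and the lists were chosen with earlier results of these data known. From each list the 3 highest per kb, those at or under 3 counts in both libraries, the co-receptor genes, and the other Src-family kinases were named. *Zap70*, *Matk*, *Sh2d1a*, *Unc119*, *Syk*, and the marker genes named were chosen after their values were seen. The cut-off of 8000 counts, which lies under the summed counts of each of the 6 genes, was not planned beforehand. Some genes of the lists are not reported here by name, but they stay in the counts and sums over their lists.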

Additional observations from a re-analysis of the deposited data

How the results depend on the processing

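No paired analysis was possible because the series has a single group. No member was called at least 2-fold different under TMM or DESeq2 library sizes, totals without 393 mitochondrial and ribosomal RNA genes, or minimum counts of 1 or 100. The same held for edgeR's exact test with an assumed coefficient of 0.1 for biological variation. These settings could hardly have given a call, since the minimum counts and edgeR left the log2 ratios nearly as they were. The largest ratio was 0.22, for *Fyn* scaled to the total, and it was 0.14 with TMM. Over all genes these settings called 55 to 218, and the main analysis 242, or 1.52% of those tested. Of the 681 genes with at least 8000 counts, the main analysis called only 1. The absence of a call among the members is thus nothing particular to them. When the fold threshold was dropped, 4 members were under an adjusted p of 0.05, as were 16.3% of all genes tested. The log2 ratio of *Ptprc* reversed to -0.0276 with TMM (adjusted p = 0.0528), -0.0266 with DESeq2 size factors (0.0644), and -0.00761 without mitochondrial and ribosomal RNA genes (0.739), all by the exact binomial test.

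Levels per kb moved with the length, as they must when a length is replaced. Per kb of coding length they were 519.8 for *Lck*, 278 for *Fyn*, 241 for *Csk*, 654 for *Ptprc*, 215 for *Pag1*, and 116 for *Ptpn22*. Per kb of the longest annotated transcript they were 371, 126, 119, 442, 33.5, and 101.5 in the same order, and of the longest coding transcript, added after seeing the data, 371, 126, 119, 500.3, 33.5, and 102. With smaller totals, without mitochondrial and ribosomal RNA genes, they were 323, 119.8, 102, 162, 33.8, and 48.2. Leaving out 1 replicate gave 261 to 292 for *Lck*, 95.1 to 110.4 for *Fyn*, 85.9 to 88.4 for *Csk*, 136 to 141 for *Ptprc*, 27.8 to 30.0 for *Pag1*, and 40.4 to 42.2 for *Ptpn22*. The ratio of *Lck* to *Fyn* per kb was 1.87 with coding length, 2.95 with either transcript length, and 2.65 to 2.75 with 1 replicate left out. With 2 libraries, leaving out 1 shows only the range.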
